A study of Mus musculus with 16 samples.

Results

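N-cadherin (Cdh2) and its 6 catenin partners in brain tissue, Ctnnb1, Ctnna1, Ctnna2, Ctnnd1, Ctnnd2 and Jup, were followed through the transcriptome data of Cdh2 H150Y knock-in mice. The 7 genes were selected by symbol from the 39017 genes of the deposited expression table, and all 7 passed the filter on low values, a mean normalised value of at least 10, as did 14814 genes in all. Tissue came from the prefrontal cortex (PFC) and the ventral midbrain (vMB) of 13-week-old male mice of the C57BL/6JRcc background. In each tissue 4 libraries were from wild-type mice (WT) and 4 from mice homozygous for the H150Y substitution in Cdh2 (Mutant), introduced by CRISPR/Cas9. The study bred its knock-in mice from more than 1 founder line, and the labels and methods do not state the line behind each library. Nor do they state which PFC and vMB libraries came from the same animals. The labels do not say that the 4 libraries of a group are from separate mice, so the p values measure the spread between these libraries. According to the methods, all animals were perfused with formaldehyde after behavioural testing. The PFC and vMB were both dissected from the hemisphere of each brain that had been frozen. The substitution changes a codon and cannot be seen in gene-level values, so the Cdh2 level does not check the genotype labels.

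Classical cadherins span the cell membrane and hold neighbouring cells together through calcium-dependent contacts between their extracellular domains. Inside the cell, the tail of N-cadherin binds beta-catenin (Ctnnb1) or its close relative plakoglobin (Jup), and these recruit alpha-catenins (Ctnna1, broadly expressed, and Ctnna2, the neuronal form), which link the complex to actin. Delta-catenins (Ctnnd1, p120-catenin, and Ctnnd2, the neuronal delta-catenin) bind the part of the tail next to the membrane and limit the removal of cadherin from the cell surface. In the brain this complex is a core part of the adhesive junctions that flank synapses, and beta-catenin also acts in the nucleus as the transcriptional effector of Wnt signalling.

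The tissue labels were checked against marker genes. The 6 midbrain dopamine neuron markers summed to between 50.4 and 115 in PFC libraries and to between 1219 and 2100 in vMB libraries, and the 5 cortical excitatory neuron markers to between 15840 and 21475 in the PFC and between 1284 and 3905 in the vMB. The estimated depth was 7740000 to 11300000 reads assigned to genes per library. Ependyma and choroid plexus markers varied widely among vMB libraries, from 522 to 9878 in WT and from 1054 to 8401 in Mutant libraries. Oligodendrocyte markers ranged from 22685 to 66254 in PFC WT and from 26179 to 87134 in PFC Mutant libraries. The median difference between Mutant and WT over all tested genes was close to 0 in either tissue, at -0.01 on the log2 scale.

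N-cadherin is the adhesion receptor of the complex. In the PFC the normalised values of Cdh2 were 1103, 1165, 1023 and 923 in the WT libraries and 522, 780, 663 and 577 in the Mutant libraries. Every Mutant value lay below every WT value. The Mutant mean was 60.3% of the WT mean, with 635 ± 112 against 1053 ± 105 (SD, n = 4), and the log2 fold change was -0.74 ± 0.18 (SE). The exact permutation test gave the smallest p that 4 against 4 libraries allow, 0.0286 (two-sided), and in 3.79% of all tested genes every Mutant value likewise lay below every WT value. Across all tested genes the change did not pass the test, with an adjusted p of 0.0745 (limma, Benjamini-Hochberg). With any 1 library left out, or under any of the other settings tried, this adjusted p lay between 0.0506 and 0.219.

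In the vMB the Mutant libraries did not form 1 level. The WT values of Cdh2 were 1082, 1115, 1148 and 1124, and the Mutant values were 1110, 1043, 590 and 574. Mutant libraries 1 and 2 thus lay at or just below the WT level, and Mutant libraries 3 and 4 at about the level of the PFC Mutant libraries. The SD among the Mutant libraries was 287 (n = 4), against 27.5 among the WT libraries, and the means were 829 and 1117. The log2 fold change was -0.50 ± 0.18 (SE), with an adjusted p of 0.107 (limma) and an exact permutation p of 0.0571. This SE equals that in the PFC, since limma shared 1 estimate of the spread over the 16 libraries. It thus does not carry the full spread of the vMB Mutant libraries. Without vMB Mutant library 1 the log2 fold change was -0.66 and passed the test, at an adjusted p of 0.0295. The library whose title carries the code A2 was the highest of the Mutant libraries in each tissue. The other Mutant code found in both tissues, D3, showed no such match. Its PFC library, at 663, lay above PFC Mutant libraries 1 and 4, and its vMB library, at 574, was the lowest. The labels and methods do not explain the code, and whether a shared code marks 1 animal could not be checked.

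Over both tissues, as the mean of the PFC and vMB differences, Cdh2 fell by 0.62 on the log2 scale (SE 0.13), to 0.651 times the WT level, with an adjusted p of 0.00418. The call held with each library left out in turn and under every other setting tried, with adjusted p values from 0.00129 to 0.0288. Of all tested genes, 2.59% were called in this comparison and 1.64% were called lower. The difference between the tissue effects, vMB minus PFC, was 0.24 with a 95% confidence interval from -0.29 to 0.78 (unadjusted p = 0.351, limma), so an equal change and a clearly smaller change in the vMB are both within the error. The interval uses the same shared spread. No tested gene was called for this interaction (0 of 14814). Among WT libraries the Cdh2 level did not differ detectably between tissues (log2 difference 0.09, adjusted p = 0.698).

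**Figure D1:**
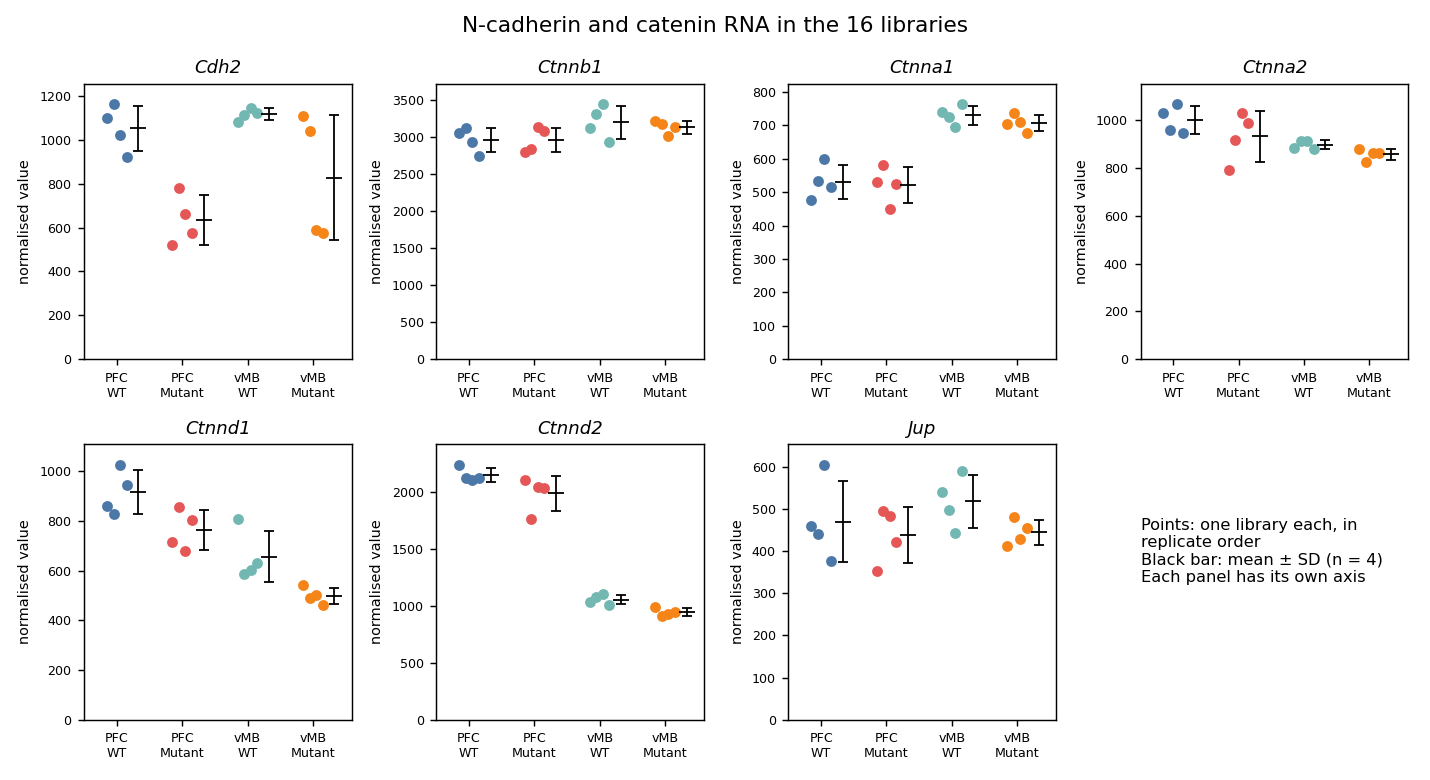
DESeq2-normalised values (y axis, linear, from 0) of the 7 genes in PFC and vMB libraries of WT and Mutant mice, 1 point per library, with the mean and SD of 4 libraries beside each group. In the PFC the Mutant values of Cdh2 (522 to 780) lie below all WT values (923 to 1165), the vMB Mutant values of Cdh2 split between 1043 to 1110 and 574 to 590, and Ctnnd2 is lower in the vMB than in the PFC in both genotypes.

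Beta-catenin and plakoglobin are the armadillo proteins that bind the distal cadherin tail. Ctnnb1 lies on chromosome 9 from 120929216 to 120960507 (GRCm38, GENCODE vM21, as for the other positions) and had the highest level per kilobase of exon of the 7 genes in every group. Its normalised values ranged from 2745 to 3114 in PFC WT, from 2797 to 3125 in PFC Mutant, from 2928 to 3441 in vMB WT and from 3005 to 3210 in vMB Mutant libraries, and the genotypes overlapped in both tissues. The log2 fold change was -0.001 in the PFC, with a 95% confidence interval from -0.13 to 0.13, and -0.03 in the vMB, from -0.16 to 0.10. Over both tissues the interval ran from -0.11 to 0.08. Differences of Ctnnb1 larger than these bounds are thus outside the measured error, and its estimate changed sign with the scaling, being above 0 in either tissue with the length trend removed. Part of the exon bases of Ctnnb1 (14.6%) overlap Ulk4 on the other strand, and the sources used here do not say whether reads were counted by strand.

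Jup varied more between libraries than Ctnnb1. It lies on chromosome 11 from 100368958 to 100397763. It ranged from 375 to 605 in PFC WT, 352 to 495 in PFC Mutant, 443 to 590 in vMB WT and 412 to 481 in vMB Mutant libraries. The log2 fold changes were -0.09 ± 0.13 (SE) for the PFC and -0.21 ± 0.13 for the vMB, at adjusted p values of 0.78 and 0.385 (limma). The intervals, -0.37 to 0.19 and -0.49 to 0.06, leave room for a moderate decrease. Per kilobase of exon, Ctnnb1 made up between 85.8% and 90.8% of the sum of Ctnnb1 and Jup over the 16 libraries, and no shift between genotypes was detectable in their log2 ratio (exact permutation p = 0.657 in the PFC and 0.257 in the vMB).

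Alpha-catenins carry the link to actin. Ctnna1 was between 475 and 599 in PFC WT and between 450 and 581 in PFC Mutant libraries, and between 696 and 764 in vMB WT and between 678 and 737 in vMB Mutant libraries. The genotypes overlapped in both tissues, and the log2 fold changes were -0.03 (95% confidence interval -0.20 to 0.14) and -0.05 (-0.22 to 0.12). Ctnna1 is placed on chromosome 18, from 35118859 to 35254779 (GRCm38), the chromosome that also holds Cdh2, from 16588877 to 16809246.

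Ctnna2, the neuronal form, lies on chromosome 6 from 76881637 to 77979699 and was measured in the vMB at 882, 915, 914 and 880 in WT and at 880, 824, 863 and 865 in Mutant libraries. All Mutant values lay below all WT values, the highest Mutant value by less than 1 unit, and the difference was small, 858 ± 23.8 against 898 ± 19.1 (SD, n = 4; exact permutation p = 0.0286). In 7.56% of all tested genes the vMB Mutant values lay below all WT values. The log2 fold change of -0.07 ± 0.07 (SE) did not pass the test (adjusted p = 0.671). Its PFC values overlapped, from 947 to 1068 in WT and from 791 to 1032 in Mutant libraries (log2 fold change -0.11, adjusted p = 0.486).

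Delta-catenins hold cadherin at the membrane, and Ctnnd1 was the catenin with the largest difference between genotypes. In the vMB its values were 807, 585, 602 and 632 in WT and 541, 490, 502 and 464 in Mutant libraries. All 4 Mutant values lay below all WT values, as in 7.56% of all tested genes. The first WT library stood above the other WT libraries. Ctnnd1 was lower in Mutant vMB by 0.38 on the log2 scale (SE 0.10), at 76.0% of the WT mean, and passed the test (adjusted p = 0.0327, exact permutation p = 0.0286). It was the only member called in the vMB, 1 of 7, where 3.25% of all tested genes were called and 2.02% were called lower. The call lay close to its thresholds. It was lost without vMB WT library 1 (log2 fold change -0.28, adjusted p = 0.0786), without WT library 4 (adjusted p = 0.0803) and without Mutant library 2 (0.0752), 3 (0.0588) or 4 (0.119). It was also lost with no filter on low values (adjusted p = 0.0513), with no mean-variance trend (0.0592), with upper-quartile or quantile scaling, where the fold was below the minimum, and when each library's trend with transcript length was removed (log2 fold change -0.28, adjusted p = 0.173).

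In the PFC, Ctnnd1 was 861, 830, 1027 and 946 in WT and 714, 855, 680 and 805 in Mutant libraries. 3 of the 4 Mutant values lay below all WT values, and the log2 fold change was -0.26 ± 0.10 (SE; adjusted p = 0.199, exact permutation p = 0.0571). The difference between the tissue effects was -0.12 with an interval from -0.43 to 0.18, so the passing test in the vMB alone does not show a difference between tissues. Over both tissues the log2 fold change was -0.32 ± 0.07 (SE), with an adjusted p of 0.00728 and a fold change below the minimum of 1.3, and the gene was therefore not called. With the length trend removed the log2 fold change over both tissues was -0.23 (adjusted p = 0.0789).

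Transcript length and vascular markers moved with the same comparison in the vMB. The slope of the log2 value on log2 exon length was between -0.0314 and 0.0355 in vMB WT libraries and between -0.122 and -0.064 in vMB Mutant libraries, and between 0.0557 and 0.0987 in PFC WT against -0.0311 to 0.0287 in PFC Mutant libraries. Of 9 endothelial markers, 3 were called lower in Mutant vMB (Flt1, Tek and Pecam1) and 7 had a log2 fold change below 0, with a median of -0.52. Their summed level was 1990 to 2434 in WT and 1812 to 2168 in Mutant libraries. Of 7 pericyte and smooth muscle markers, all 7 were below 0 and 1 was called (Pdgfrb), with sums of 1419 to 1704 against 1252 to 1466, and no marker of either list was at 0 in either group. In the PFC, the summed astrocyte markers were 30726 to 33021 in WT and 24733 to 28695 in Mutant libraries, with all 8 markers below 0 (median -0.13) and none called. The corresponding vMB sums overlapped, 18691 to 21654 against 18363 to 22041. Further marker lists also moved, with no gene called in those given here. In the PFC, medians were -0.47 for pericytes and smooth muscle (6 of 7 below 0) and -0.37 for fibroblasts (5 of 6). Those for oligodendrocytes (0.28) and microglia (0.16) were above 0, as were all 6 markers of each. In the vMB, medians were -0.43 for fibroblasts (5 of 6 below 0) and -0.33 for oligodendrocyte precursors (2 of 2). The 4 measured midbrain dopamine neuron markers were all below 0 there (median -0.33). The part of these shifts in the results for Cdh2 and the catenins was not tested. In whole tissue, fewer cells of a type and less RNA per cell cannot be told apart.

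Ctnnd2, the neuronal delta-catenin, lies on chromosome 15 from 30172593 to 31029341 and showed small differences between genotypes. In the vMB it was 1032, 1077, 1106 and 1012 in WT and 990, 912, 927 and 950 in Mutant libraries. Again every Mutant value lay below every WT value, as in 7.56% of all tested genes. The Mutant mean was 89.4% of the WT mean, and the log2 fold change of -0.16 ± 0.06 (SE) did not pass the test (adjusted p = 0.121, exact permutation p = 0.0286). Its PFC values were 2243, 2126, 2107 and 2126 in WT and 2113, 1770, 2047 and 2039 in Mutant libraries (log2 fold change -0.11, adjusted p = 0.352). Over both tissues the log2 fold change was -0.14 ± 0.04 (SE), with an adjusted p of 0.0412 below the fold minimum. With the length trend removed this estimate was 0.0009 (adjusted p = 0.994), so the difference of Ctnnd2 was no longer present on that scale.

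The start regions of the delta-catenin pair are shown because these genes were the catenins with the smallest p values between genotypes over both tissues and were also the catenins called lower in the vMB than in the PFC of WT mice. Promoter windows, from RefSeq on GRCm38.p6, run from 250 bases before to 50 bases after a transcript start and were used for 5 of the 7 genes. Capitals mark the letters of a GC box, searched as GGGCGG. They also mark those of a CCAAT box, searched by the letters of its name. The last motif marked is a TATA box, searched as TATAAA. Each was searched on both strands. Over the 32851 windows of the same length, 35.7% hold the GC box letters, 37.4% the CCAAT letters and 13.6% the TATA letters. A match is a description of letters, not of a bound factor.
Ctnnd1, upstream start, chr2:84658928-84659227, minus strand: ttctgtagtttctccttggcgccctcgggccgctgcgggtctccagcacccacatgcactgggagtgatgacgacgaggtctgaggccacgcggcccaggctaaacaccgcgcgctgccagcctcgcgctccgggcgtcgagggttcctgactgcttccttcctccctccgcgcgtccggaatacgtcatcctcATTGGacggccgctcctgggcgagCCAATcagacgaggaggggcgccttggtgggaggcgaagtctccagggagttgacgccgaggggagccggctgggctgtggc
Ctnnd1, downstream start, chr2:84650691-84650990, minus strand: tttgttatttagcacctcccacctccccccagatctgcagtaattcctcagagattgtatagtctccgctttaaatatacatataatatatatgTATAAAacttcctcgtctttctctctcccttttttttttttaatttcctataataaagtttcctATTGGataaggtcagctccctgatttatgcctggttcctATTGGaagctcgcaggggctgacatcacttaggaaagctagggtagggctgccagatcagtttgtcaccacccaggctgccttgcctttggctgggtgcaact
Ctnnd2, chr15:30172284-30172583, plus strand: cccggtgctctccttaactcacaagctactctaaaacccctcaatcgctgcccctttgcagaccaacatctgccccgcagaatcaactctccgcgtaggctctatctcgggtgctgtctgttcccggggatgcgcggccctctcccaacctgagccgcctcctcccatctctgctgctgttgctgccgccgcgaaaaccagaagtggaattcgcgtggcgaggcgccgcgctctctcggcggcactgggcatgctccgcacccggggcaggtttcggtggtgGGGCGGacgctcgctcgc
The upstream window of Ctnnd1 has 2 CCAAT matches and no match to the other letters, and is 67.7% G and C. The downstream window, 42.7% G and C, has 2 CCAAT matches and 1 TATA match. The Ctnnd2 window, 64.7% G and C, has 1 GC box match. Ctnnd1 itself extends from 84600071 to 84650765 on chromosome 2 in GENCODE vM21, and 61.2% of its exon bases are shared with Gm28635, an overlapping gene model on the same strand. The sources used here do not say how reads in the shared part were assigned, which leaves the level of Ctnnd1 uncertain.

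**Figure D2:**
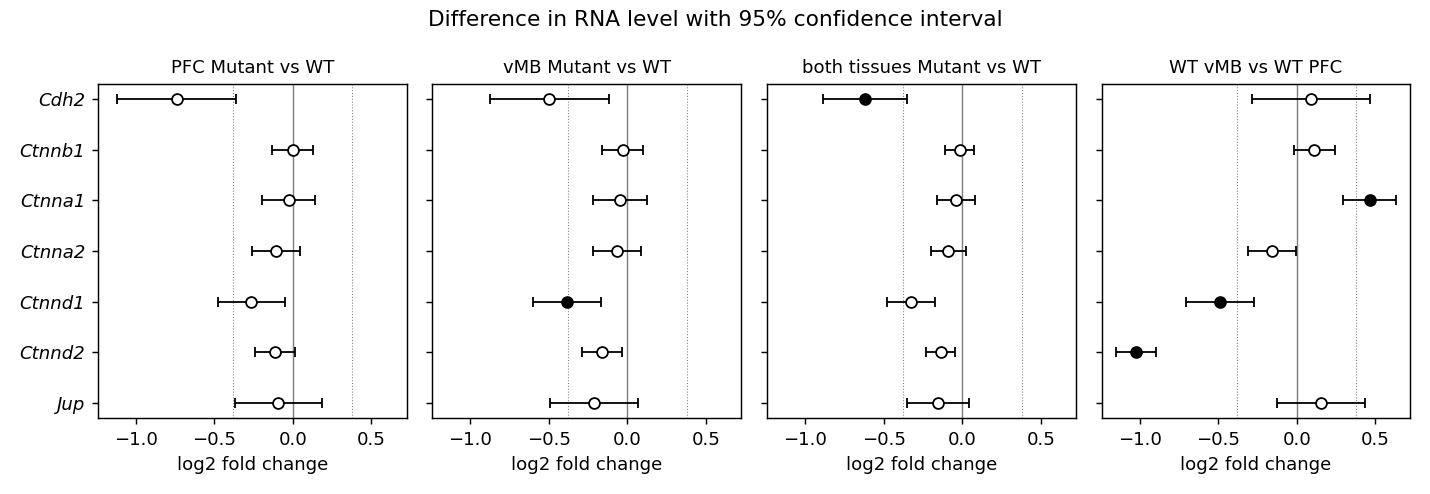
Log2 fold changes (x axis) of the 7 genes with 95% confidence intervals from limma over 16 libraries, in 4 comparisons. Filled circles passed an adjusted p of 0.05 and a fold change of 1.3, the latter marked by dotted lines: Ctnnd1 in the vMB, Cdh2 over both tissues, and Ctnna1, Ctnnd1 and Ctnnd2 between tissues in WT mice.

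As a set, the 7 genes had log2 fold changes below 0 in either tissue and over both. The medians were -0.11, -0.16 and -0.14, beside medians of -0.008, -0.007 and -0.01 over all tested genes, of which 51.5%, 51.1% and 52.2% were below 0. None of the 7 was called in the PFC, where 0.142% of all tested genes were called and 0.0945% were called lower. At an unadjusted p under 0.05 (limma), Cdh2 and Ctnnd1 were the members below 0 in the PFC. The signs of the small differences depended on the scaling: with the length trend removed, Ctnnb1 and Ctnna1 were above 0 in all 3 comparisons, Ctnnd2 in the PFC and over both tissues and Ctnna2 in the vMB, while Cdh2, Ctnnd1 and Jup stayed below 0.

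The 7 genes were also compared between the tissues of WT mice. Of these, Ctnna1 was higher in the vMB and Ctnnd1 and Ctnnd2 were lower, 3 of 7, in a comparison that called 43.6% of all tested genes, 22% higher and 21.6% lower, so the share of the 7 genes called was close to that of all genes. Ctnnd2 differed most, with a vMB mean of 1057 ± 42.9 against 2150 ± 62.2 in the PFC (SD, n = 4), or 49.1%. The log2 difference was -1.02 ± 0.06 (SE; adjusted p = 1.97e-10), and no vMB value reached the lowest PFC value. Ctnna1 was 739, 724, 696 and 764 in vMB WT and 475, 533, 599 and 516 in PFC WT libraries. Its log2 difference was 0.46 ± 0.08 (SE; adjusted p = 9.03e-05). Ctnnd1 was lower in the vMB by 0.49 on the log2 scale (SE 0.10, adjusted p = 5.75e-04), without overlap. Ctnna2 was 89.7% of the PFC mean, without overlap between tissues (exact permutation p = 0.0286), and its log2 difference of -0.16 did not pass the test (adjusted p = 0.0799). In 49.7% of all tested genes the WT libraries of the tissues did not overlap, and in 24.3% every vMB value lay below every PFC value. Ctnnb1 and Jup overlapped, with log2 differences of 0.11 and 0.15 (adjusted p = 0.143 and 0.348).

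Levels between genes were compared as normalised value per kilobase of exon. That of Ctnnd1 is uncertain because of the exon bases shared with Gm28635. In PFC WT libraries Ctnnb1 was highest at 570 ± 31.1 (SD, n = 4), followed by Ctnnd2 at 208 ± 6.03, and the ranges of these genes overlapped neither each other nor the next gene. Ctnna2, at 144 ± 8.34, overlapped with Cdh2, at 131 ± 13.0, which overlapped with Ctnnd1, at 125 ± 12.1. Ctnna1, at 82.6 ± 8.02, overlapped with Jup, at 73.0 ± 15.03. In vMB WT libraries Ctnnb1 was again highest at 616 ± 42.9, and Cdh2 ranked next at 139 ± 3.41, above Ctnna2 at 129 ± 2.76, Ctnna1 at 114 ± 4.42 and Ctnnd2 at 102 ± 4.16, all without overlap between neighbours. Ctnnd1, at 89.7 ± 13.9, overlapped with its neighbours Ctnnd2 and Jup, the latter at 80.4 ± 9.70. In the PFC Mutant libraries Cdh2 stood at 78.8 ± 13.9 per kilobase, where its range overlapped with those of Ctnna1 and Jup, its neighbours in the order.

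Shares within the paralog pairs were taken per kilobase, over the sum of the pair. Ctnna2 made up 63.6% ± 2.11 of its sum with Ctnna1 in PFC WT and 53.2% ± 1.45 in vMB WT libraries (SD, n = 4). Ctnnd2 made up 62.5% ± 2.65 of its sum with Ctnnd1 in the PFC and 53.5% ± 4.26 in the vMB. The exon bases that Ctnnd1 shares with Gm28635 leave this share uncertain. Both log2 ratios were lower in the vMB in every WT library (exact permutation p = 0.0286, and 0.0514 after adjustment over the 9 ratios). In Mutant mice the shares of Ctnna2 were 62.2% ± 4.52 and 52.9% ± 1.44 and those of Ctnnd2 64.9% ± 4.01 and 57.3% ± 1.27. Neither ratio differed detectably between genotypes within a tissue, with exact permutation p values from 0.114 to 0.771. With the length trend removed, the ratio of Ctnnd2 to Ctnnd1 was higher in all Mutant vMB libraries, by 0.26 on the log2 scale (exact permutation p = 0.0286).

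The ratio of Cdh2 to each catenin within a library is free of that library's scaling. In the PFC the log2 ratio of Cdh2 to Ctnnb1 was -1.47, -1.42, -1.52 and -1.57 in WT and -2.42, -1.86, -2.24 and -2.41 in Mutant libraries. The Mutant ratio was 0.599 times the WT ratio, with no overlap. The ratios to Ctnna1, Ctnna2, Ctnnd1 and Jup were likewise lower in all 4 PFC Mutant libraries, at 0.610, 0.645, 0.719 and 0.638 times the WT ratio (exact permutation p = 0.0286 for each). For Ctnnd1 the highest Mutant log2 ratio, -0.0364, was barely below the lowest WT ratio, -0.0354, and with the length trend removed the groups overlapped (exact permutation p = 0.0571). The ratio to Ctnnd2, 0.648 times that of WT, overlapped (p = 0.0571, exact permutation test), and did not with the length trend removed (p = 0.0286, exact permutation test). In the vMB no ratio of Cdh2 to a catenin separated the genotypes, with exact permutation p values from 0.114 to 0.771, with the ratios of Mutant libraries 1 and 2 within, above or just below the WT range. For Ctnnb1 the vMB Mutant log2 ratios were -1.53, -1.61, -2.35 and -2.45, against -1.53, -1.57, -1.58 and -1.38 in WT. Of 18 comparisons of ratios between genotypes, 5 reached an exact p of 0.0286, and none passed an adjustment over the 18 (adjusted p = 0.103). The count fell to 1 without PFC WT library 1, to 2 without PFC WT library 2, 3 or 4, and to 3 without PFC Mutant library 1 or 4. With 3 against 4 libraries, groups without overlap can still give an exact permutation p of 0.0571. The ratio to Ctnnb1 did so without PFC WT library 1, at a log2 difference of -0.73. The lower counts thus do not show that the ratios rest on the library left out. All 6 ratios share Cdh2 and are not independent of each other.

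**Figure D3:**
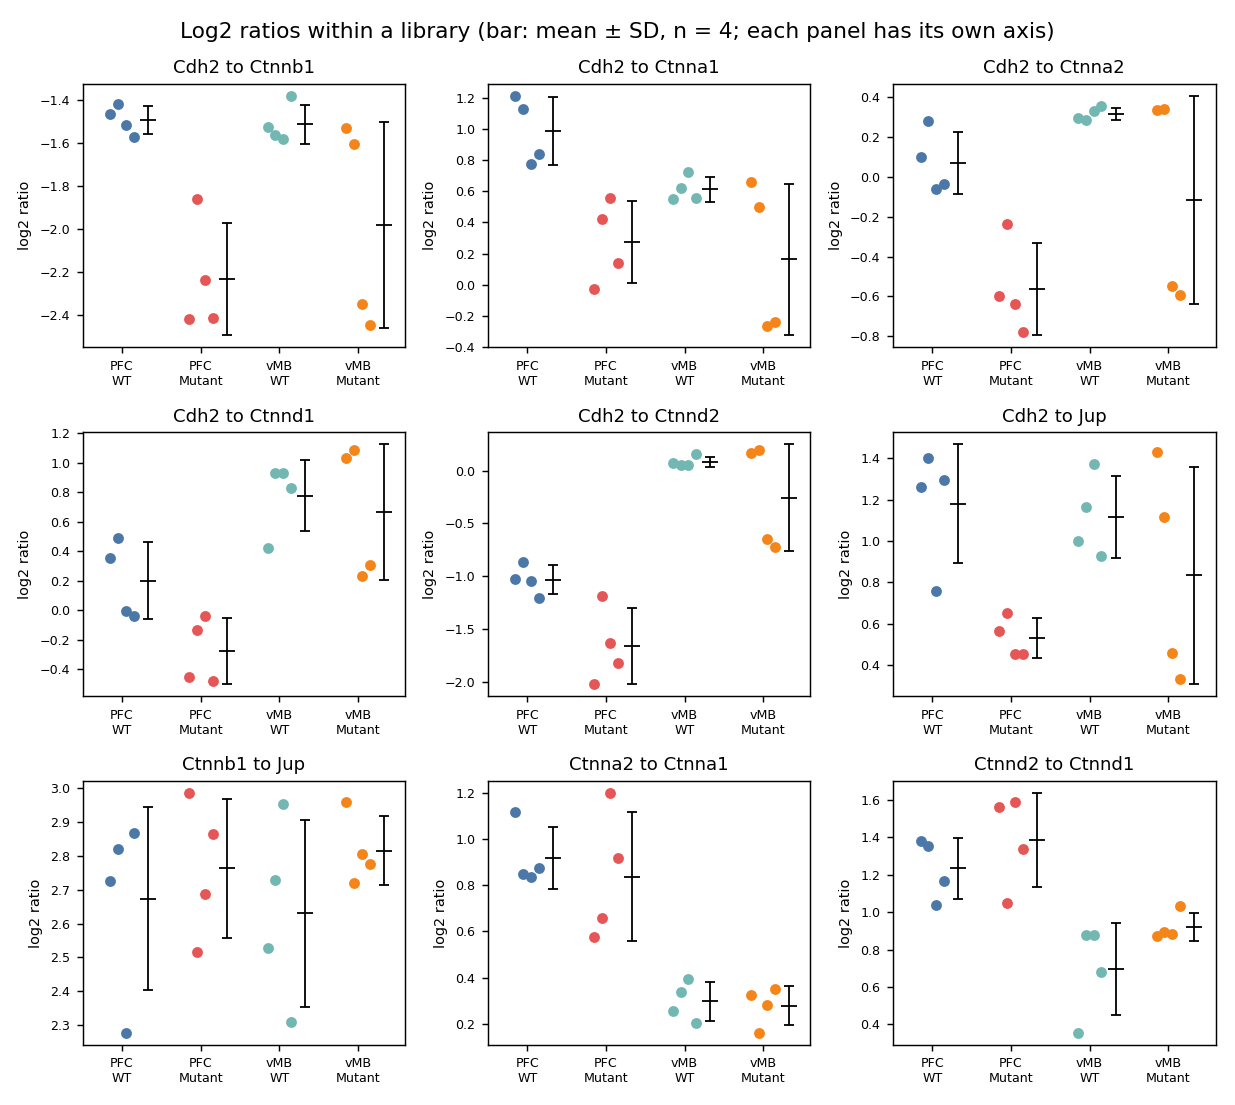
Log2 ratios within a library (y axis, 1 panel per ratio, each with its own range), 1 point per library, with the mean and SD of 4 libraries beside each group. In the PFC the Mutant ratios of Cdh2 to Ctnnb1 (-2.42 to -1.86) lie below the WT ratios (-1.57 to -1.42), and the ratios Ctnna2 to Ctnna1 and Ctnnd2 to Ctnnd1 are lower in the vMB than in the PFC in WT mice.

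Co-variation with Cdh2 was measured on deviations from the 4 group means over the 16 libraries. Pearson's r with Cdh2 was 0.33 for Ctnnb1, 0.24 for Jup, 0.16 for Ctnnd1, 0.14 for Ctnna1, 0.14 for Ctnna2 and -0.18 for Ctnnd2. The permutation p within groups ranged from 0.0984 for Ctnnb1 to 0.612 for Ctnna2, and after adjustment over the 6 catenins from 0.591 to 0.612. Spearman's rho was 0.38 for Ctnnb1 (permutation p = 0.0985) and between -0.08 and 0.20 for the other catenins (permutation p from 0.439 to 0.95). Without the vMB Mutant libraries 1 and 4, those farthest from the median of Cdh2, r was 0.35 for Ctnnb1 (permutation p = 0.171) and -0.43 for Ctnnd2 (permutation p = 0.123). Since Cdh2 lay at separate levels within the vMB Mutant group, r was also taken without that group. Over the remaining 12 libraries it was 0.31 for Ctnnb1, 0.50 for Jup, 0.38 for Ctnna2, 0.06 for Ctnna1, -0.02 for Ctnnd1 and -0.57 for Ctnnd2, with permutation p values from 0.171 to 0.941.

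Within the PFC (8 libraries) r lay between -0.67 for Ctnnd2 and 0.59 for Jup, and within the vMB (8 libraries) between -0.16 for Ctnna2 and 0.36 for Ctnna1. None of these had a permutation p under 0.05. Within WT libraries, r of Ctnnb1 was 0.68 (n = 8, permutation p = 0.0278, adjusted over the 6 catenins 0.167), and within Mutant libraries it was 0.34 (permutation p = 0.321). Over all other tested genes the median r with Cdh2 was 0.01, with the 5th and 95th percentiles at -0.46 and 0.48. The catenins lay inside these bounds: r was lower than that of Ctnnb1 in 85.4% of genes and lower than that of Ctnnd2 in 25.7%.

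**Figure D4:**
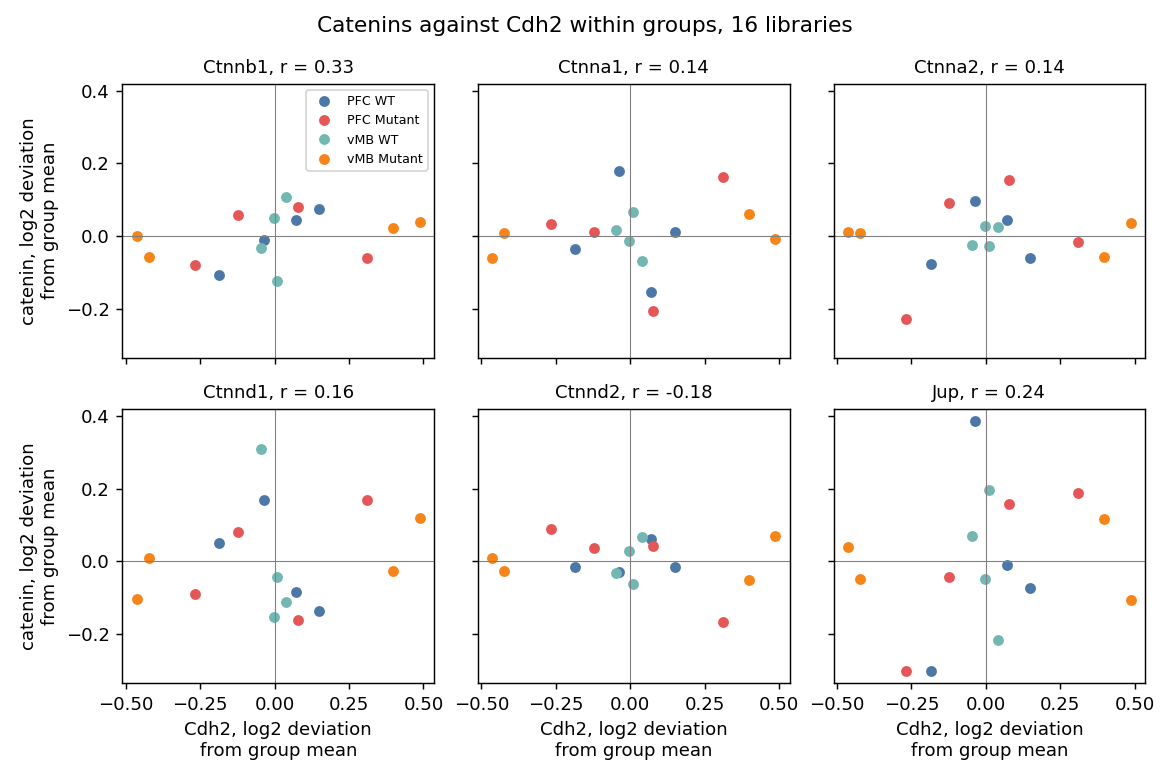
Deviation of each catenin from its group mean (y axis, log2) against the deviation of Cdh2 (x axis, log2) in the 16 libraries, coloured by group, with Pearson's r above each panel. The vMB Mutant libraries lie at the far left and right, and r runs from -0.18 for Ctnnd2 to 0.33 for Ctnnb1.

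The genes closest to Cdh2 by the same measure, among 11151 named genes with a mean of at least 50, were Gtf2i (r = 0.87), Naa25 (0.86), Crat (0.86), Unc13a (0.83) and Zfand3 (0.83), and the most opposite were Strip2 (-0.88) and Slc25a36 (-0.84). Gtf2i encodes a general transcription factor, Naa25 a subunit of an N-terminal acetyltransferase, Crat carnitine acetyltransferase, Unc13a a protein that primes synaptic vesicles for release, and Slc25a36 a mitochondrial carrier. These genes were picked for their r, so the values are a description. They rest in part on the vMB Mutant libraries: over the 12 other libraries r was 0.70 for Gtf2i and Zfand3, 0.65 for Naa25, 0.68 for Crat, 0.20 for Unc13a, -0.81 for Strip2 and -0.79 for Slc25a36. In vMB Mutant libraries Gtf2i was 1738, 1734, 1388 and 1507, so the libraries low in Cdh2 were also low in Gtf2i. Strip2 was 264, 301, 398 and 367 in the same libraries, so those low in Cdh2 were the higher ones in Strip2.

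Further genes of the pathway were read from 5 lists, of which those with a call in the PFC, the vMB or both tissues are named. The lists were chosen with earlier results of these data known. The paper had already reported Iqgap1, Vcl and Cdh5 of these lists as lower in Mutant mice. It had also reported the members Cdh2 and Ctnnd1 as lower. The counts in the lists, set beside shares of all genes, are therefore a description. Of 25 junction partners, which connect cadherins and catenins to actin or to other membrane proteins, 4 fell in Mutant vMB, where 2.02% of all tested genes were called lower. None was called higher, and Lin7b, named after its values were seen, had a log2 fold change of 0.28 in the vMB (adjusted p = 0.0269) and 0.27 over both tissues (adjusted p = 0.00202), below the fold minimum. These were Mllt4 (afadin, which links nectins to actin and alpha-catenin), Iqgap1 (a scaffold that binds beta-catenin and actin), Vcl (vinculin, recruited by alpha-catenin under tension) and Ptprm (a receptor tyrosine phosphatase that associates with cadherins). Mllt4 was 565, 734, 628 and 637 in WT and 527, 394, 515 and 333 in Mutant libraries (log2 fold change -0.55 ± 0.13 SE, adjusted p = 0.018). Iqgap1 was 193, 185, 212 and 217 in WT and 159, 140, 151 and 129 in Mutant libraries (log2 fold change -0.48 ± 0.09 SE, adjusted p = 0.00855). The groups did not overlap for any of the 4 genes, which were picked by their calls in this same comparison. In 7.56% of all tested genes every vMB Mutant value likewise lay below every WT value. Vcl changed by -0.44 (adjusted p = 0.0351) and Ptprm by -0.41 (adjusted p = 0.00957). The Vcl call was also lost with no filter on low values (adjusted p = 0.0548), with no mean-variance trend (0.0529), and without vMB WT library 1, 3 or 4 or Mutant library 2, 3 or 4 (0.0534 to 0.138). The Mllt4 call was lost without vMB WT library 2 or 4 or Mutant library 2 or 4 (0.0558 to 0.0728). The median of the 25 genes was -0.15, with 18 below 0, beside 51.1% of all tested genes below 0.

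Over both tissues Vcl (log2 fold change -0.42, adjusted p = 0.00352) and Mllt4 (-0.42, adjusted p = 0.00596) fell. In the PFC no gene of the list was called. Mllt4 was 1120, 956, 1077 and 895 in PFC WT and 879, 711, 858 and 863 in PFC Mutant libraries. Every Mutant value lay below every WT value, as in 3.79% of all tested genes. With the length trend removed, 0 of the 25 genes were called in the vMB or over both tissues. In the vMB, 1 gene of the list was called without WT library 4 or without Mutant library 4 (Iqgap1 each time), and 2 without Mutant library 2. Over both tissues, 0 were called without vMB Mutant library 4.

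Of 20 genes of beta-catenin turnover and transcription, 1 was called in the vMB, Bcl9l, a coactivator that binds beta-catenin. It was 249, 263, 251 and 326 in WT and 214, 213, 207 and 193 in Mutant libraries (log2 fold change -0.39 ± 0.10 SE, adjusted p = 0.0277). The call was lost with the length trend removed (adjusted p = 0.137) and without vMB WT library 2 or 4 or Mutant library 2, 3 or 4 (adjusted p from 0.0513 to 0.112). In that list 16 of 20 genes were below 0 in the vMB (median -0.24), beside 51.1% of all tested genes. None was called over both tissues, where Gsk3b, Bcl9, Chd8, Bcl9l and Apc passed the adjusted p (0.00299 to 0.0378) with log2 fold changes of -0.33 to -0.21, below the fold minimum. Of these, the genes other than Bcl9l were named after their values were seen. At the adjusted p alone, 1923 of 14814 tested genes passed over both tissues. The 8 enzymes that process N-cadherin, among them Furin, which removes the prodomain, were all below 0 in the vMB (median -0.12) and 7 of 8 in the PFC, with none called. Of all tested genes, 51.1% were below 0 in the vMB and 51.5% in the PFC. Furin had a log2 fold change of -0.32 in the vMB (adjusted p = 0.0271), below the fold minimum. Of 5 measured relatives of the catenins (Ctnna3, Ctnnal1, Arvcf, Pkp2 and Pkp4) none was called in either tissue.

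Of 16 measured classical cadherins other than Cdh2, 1 was called, lower in the vMB and over both tissues. Of all tested genes, 2.02% were called lower in the vMB and 1.64% over both tissues. Cdh5, the cadherin of endothelial junctions, was 118, 92.0, 93.7 and 137 in WT and 80.2, 70.6, 55.7 and 47.5 in Mutant vMB libraries, where its log2 fold change was -0.80 ± 0.17 (SE, adjusted p = 0.0123). It also fell over both tissues (-0.59 ± 0.12 SE, adjusted p = 0.00388). With the length trend removed Cdh5 was still called in the vMB and over both tissues. The call in the vMB was lost without WT library 4 (adjusted p = 0.0571) or Mutant library 4 (0.0557). The endothelial marker values above moved with it, and their part in its change was not tested. In the PFC no gene of the 5 lists was called, and 12 of the 16 cadherins were below 0 (median -0.23), beside 51.5% of all tested genes.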

How the data were processed

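Poly-A RNA was sequenced from the 16 libraries. According to the methods and the submitters' processing notes, the authors trimmed reads with Cutadapt 1.8.3, mapped them with TopHat2 2.0.10, counted them per gene with HTSeq 0.6.1p1 and normalized the counts with DESeq2. The build they name is GRCh38, a human genome, while the identifiers are mouse genes, and the sources used here do not give the mouse build. Coordinates and exon lengths were matched by identifier from GENCODE vM21 (GRCm38).

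The deposited signal values are these normalized counts, 1 column per library. They are not whole reads (66.3% to 70.1% of low values came within 0.05 of a whole step), so no count test was run, and depth is an estimate. The deposited columns with the authors' p-values, the score columns with their signed fold changes and their pass marks hold the study's own comparisons and were not used.

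The minimum mean over libraries for a tested gene was 10. Testing was done on log2(value + 1) with limma 3.58.1 (R 4.3.3), using a model of 4 groups and a mean-variance trend, and p values were adjusted by Benjamini-Hochberg over the 14814 genes. A fold change is on this scale and understates that of low genes. Called genes passed both an adjusted p threshold of 0.05 and a fold minimum of 1.3. Single values were compared by exact permutation tests, two-sided, over the 70 ways to split 8 libraries. Correlations used deviations from group means with 100000 permutations within groups. Python 3.11.15, NumPy 2.4.6, SciPy 1.17.1, pandas 2.3.3 and matplotlib 3.10.9 were used. The fits were tested on simulated data.

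Members and gene lists were chosen with earlier results of these data known. Named genes are the 7 members, each list gene called in the PFC, the vMB or both tissues, and the 5 genes highest and 2 lowest in r with Cdh2. Alternatives were other pseudocounts, filters, scalings, fold minima and sample sets, no variance trend, removal of each library's length trend, blocks by replicate number or title code, and each library left out. Leaving out the vMB Mutant group in the correlations was chosen after seeing the data.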

Additional observations from a re-analysis of the deposited data

Results flagged for a closer look

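In each of 64 groups of 4 libraries, the gap of the highest or lowest library to its neighbour was compared with the range of the group. This flags about 1 group in 20 by chance, and 3 were found. Ctnnd2 in PFC WT library 1, at 2243, stood above the other 3 libraries (2107 to 2126), with a gap of 0.864 of the range. The log2 ratio of Ctnna2 to Ctnna1 in the same library, 1.115, stood apart by 0.856 of the range. The log2 ratio of Ctnnd2 to Ctnnd1 in vMB Mutant library 4 was 1.03, with a gap of 0.845 of the range. For no member did the genotype effect differ between the tissues in the test of the interaction.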

How the results depend on the processing

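Of 1958 values of single genes, correlations and ratios under other settings, 1809 kept their direction and side of the threshold. Of the rest, 86 lost a call, 13 gained one, 50 changed sign without a call, and 0 called values reversed. The size of a change was not a criterion. The count of the 7 genes called in the PFC was 0 in all settings. In the vMB it was 1, and 0 with no filter on low values, upper-quartile rescaling, quantile normalization, no mean-variance trend, the replicate block, the length trend removed with or without the replicate block, or a fold of at least 1.5. With 1 library left out it ranged from 0 to 2, the 2 being Cdh2 and Ctnnd1 without vMB Mutant library 1. Over both tissues it was 1, and 3 with no fold minimum, where 1923 of 14814 tested genes were called. Between WT tissues it was 3, and 1 with a fold of at least 1.5, where 4550 tested genes were called. The number of catenins correlated with Cdh2 at an unadjusted permutation p under 0.05 was 0, and 1 (Ctnnb1) with quantile normalization; with 1 library left out it ranged from 0 to 1, the 1 being Ctnnb1 without PFC Mutant library 2. The number of ratios at an exact p under 0.05 was 5 and ranged from 1 to 7 with 1 library left out. With 3 against 4 libraries, groups without overlap can exceed that p. In the lists, 1 junction gene was called lower in the PFC without PFC WT library 2, and 1 gene of beta-catenin turnover without PFC WT library 2 or PFC Mutant library 3. With no fold minimum, 8 junction genes were called lower and 1 higher over both tissues, and 5 turnover genes lower. At that setting 1923 of 14814 tested genes were called in either direction over both tissues, against 383 at the main setting. Causes were not tested, except that a fold minimum acts by its construction.

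The replicate numbers did not pair the libraries: over 24 same-numbered pairs the correlation of deviations was -0.132 to 0.0873, 0 of them over 0.1, and 3 of 16 libraries correlated best with their own number. With the replicate block, the count in the vMB was 0 (Ctnnd1, adjusted p = 0.0506), and 0 ratios passed, since the sign-flip test over 4 pairs cannot go below 0.125. Estimated depth, 7740000 to 11300000 reads per library, and 4 libraries per group limit the precision.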

Other observations

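Other cadherins and genes around the catenins were also compared between the tissues of WT mice, where 22% of all tested genes were called higher and 21.6% lower in the vMB. In either direction 43.6% of all tested genes were called, and the shares among turnover genes and junction partners were close to this. By direction the junction partners were mostly lower. Of these, 20 of 25 were below 0 (median -0.25), beside 48.8% of all tested genes. The values are a description. The genes named here were chosen after their values were seen. Of 20 genes of beta-catenin turnover and transcription, 3 were higher in the vMB and 6 lower. Tcf7l2, a transcription factor that binds beta-catenin, was higher by 3.98 on the log2 scale, and its relative Lef1 by 1.28. Apc, a scaffold of the complex that degrades beta-catenin, was lower (log2 difference -1.08). Of 16 other classical cadherins, 4 were higher, with Cdh1 (E-cadherin) at a log2 difference of 1.32 and Cdh20 at 1.05, and 6 were lower, with Cdh9 at -1.10 and Cdh11 at -0.96. Of 25 junction partners, 9 were lower, among them the actin crosslinker Actn1 (-1.93), and 1 was higher. The oligodendrocyte markers, 22685 to 66254 in PFC WT and 133745 to 160271 in vMB WT libraries, moved with this comparison, and their part in it was not tested.

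Among the 7 genes, deviations from group means over the 16 libraries correlated most between Ctnna1 and Ctnnd1 (r = 0.57), Ctnnb1 and Ctnna2 (0.54) and Ctnna2 and Jup (0.52), and most negatively between Ctnna1 and Ctnnd2 (-0.64) and between Ctnnd2 and Jup (-0.56). These are descriptions over libraries that share a depth and normalization within each point.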
